A study of Mus musculus with 9 samples.

Results

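The genes described here are those of the neuronal intermediate filaments, Nefh, Nefm, Nefl, Ina and Prph, together with Spp1 and Thy1, which are used as labels of sensory neurons with large axons. They were taken from a list of gene names, which is 7 of the 21536 genes in the deposited table, and all 7 had UMIs (unique molecular identifiers, each standing for 1 captured transcript) in neurons. The data are Dropseq single-cell transcriptomes of trigeminal ganglia from untreated wild-type FVB/N mice of both sexes, aged 3 to 6 weeks by the labels and 3 to 5 weeks by the study's methods. The labels list 9 runs, and by the methods each run pooled the ganglia of 20 to 30 mice. Neurons were enriched on a Percoll gradient and by depletion of glia, but a barcode in the table does not name its run, so all barcodes were treated as 1 pooled sample without replicates and no test between groups of neurons was possible.

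Neurofilaments are assembled from a light, a medium and a heavy subunit, encoded by Nefl, Nefm and Nefh. The light subunit forms the core of the filament, while the long tails of the medium and heavy subunits project from it and are phosphorylated in axons at lysine-serine-proline motifs. Neurofilaments are abundant in large myelinated axons, and antibodies to the heavy subunit are a classical stain for large sensory neurons. Alpha-internexin (Ina) and peripherin (Prph) are related filament proteins that can assemble with the neurofilament subunits. Peripherin is typical of peripheral neurons and is a classical stain for small sensory neurons, whereas alpha-internexin is best known from the central nervous system. Spp1 encodes osteopontin, a secreted phosphoprotein found in large sensory neurons as well as in many non-neuronal cells, and Thy1 encodes a small cell-surface glycoprotein of neurons.

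In the GRCm38 assembly, which corresponds to the mm10 build used by the authors, GENCODE places Nefh on chromosome 11 from 4938754 to 4948064 with 4 exons. Nefl (chromosome 14, 68083863 to 68089095, 4 exons) lies on the forward strand, and Nefm (chromosome 14, 68082590 to 68124846) on the reverse strand. The Nefm interval contains that of Nefl because the transcript Nefm-202 runs from 68124846 down to 68082590, whereas the 3-exon transcript Nefm-201 ends at 68119283 and does not reach Nefl. Whether counting used the strand is not given in the sources used here, so UMIs in the shared stretch cannot be assigned with certainty. The other genes are Ina on chromosome 19 (47014698 to 47025327), Prph on chromosome 15 (99055174 to 99058978), Spp1 on chromosome 5 (104435118 to 104441050) and Thy1 on chromosome 9 (44043384 to 44048579), each on the forward strand.

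The heavy subunit is set apart from its partners by the coding sequence of its tail. In the GENCODE coding sequences, 3 consecutive codons for lysine, serine and proline occur 51 times in Nefh (3270 coding bases) and 4 times in Nefm (2544 bases), and they do not occur in Nefl (1629 bases), Ina (1503 bases) or Prph (1521 bases). A stretch of 120 coding bases that holds 7 of them is shown as an example of the repeats. It is coding base 1561 to 1680 of Nefh-201, in exon 4, at chr11:4940938-4941057 on the reverse strand, with each codon triplet in capitals.
Nefh: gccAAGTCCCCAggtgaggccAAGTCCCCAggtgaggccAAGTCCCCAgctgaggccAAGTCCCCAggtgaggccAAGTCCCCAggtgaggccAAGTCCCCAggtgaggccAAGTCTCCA

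Upstream sequence was found in the RefSeq promoter table (GRCm38.p6) for 3 of the 7 genes, Prph, Ina and Spp1. The 150 bases before the start site are shown because these genes had different profiles over the groups of neurons. Capitals mark the motifs searched for on both strands. These were TATAAA, known as the TATA box, the motif CCAAT of upstream promoter elements, and the motif GGGCGG, known as the GC box. No match overlapped another in these windows. On the reverse strand CCAAT is printed as ATTGG. On that strand GGGCGG is printed as CCGCCC.
Prph: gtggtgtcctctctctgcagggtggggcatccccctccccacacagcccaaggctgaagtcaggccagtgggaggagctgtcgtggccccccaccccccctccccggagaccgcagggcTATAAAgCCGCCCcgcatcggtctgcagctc
Ina: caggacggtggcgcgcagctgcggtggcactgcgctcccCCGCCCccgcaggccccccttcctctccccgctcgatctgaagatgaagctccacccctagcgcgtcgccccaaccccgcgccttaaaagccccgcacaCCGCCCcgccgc
Spp1: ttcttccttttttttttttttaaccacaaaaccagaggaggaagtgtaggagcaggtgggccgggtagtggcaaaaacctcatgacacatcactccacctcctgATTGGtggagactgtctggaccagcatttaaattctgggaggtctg
The windows are chr15:99055024-99055173, chr19:47014531-47014680 and chr5:104434961-104435110, all on the forward strand. In the Prph window TATAAA begins 31 bases and a reversed GGGCGG 24 bases before the start. The Ina window holds 2 reversed GGGCGG sequences and no TATAAA. Spp1 has a reversed CCAAT that begins 46 bases before the start. Over all 32851 promoter windows of this length, 7.57% hold TATAAA, 24.5% hold CCAAT and 28.6% hold GGGCGG, so TATAAA is the least common of the 3.

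The table holds 6997 barcodes with 30491529 UMIs, a median of 2031 and a range of 1000 to 190815 per barcode. Neurons were barcodes with 500 to 7500 genes, a UMI of at least 2 of Tubb3, Scn9a, Snap25 and Uchl1 and none of Epcam, which gave 3838 neurons (54.9% of barcodes) with a median of 3014 UMIs. They were grouped by marker UMIs, the first rule met deciding: Trpm8 with at least 2 UMIs (244 neurons), Mrgprd with at least 2 (379), Mrgpra3 with at least 1 (49), Nppb with at least 2 (59), Cd34 with at least 1 (319), S100b with at least 2 and no Trpv1 (491), and Calca with at least 5 and Trpv1 with at least 1 (914). The last of these are called Calca/Trpv1 neurons. Trpm8 encodes the cold-activated channel, Mrgprd and Mrgpra3 receptors of nociceptive and itch neurons, Nppb a natriuretic peptide of itch neurons, Cd34 a surface glycoprotein, S100b a calcium-binding protein of large neurons and of glia, and Trpv1 the capsaicin receptor. None of these rules uses any of the 7 genes, and 1383 neurons met no rule. Independent markers were highest in their own group for 4 of 4 markers in Trpm8, Mrgprd, Nppb, Cd34 and Calca/Trpv1 neurons. The count was 4 of 5 in S100b neurons but 1 of 3 in Mrgpra3 neurons, which are therefore named by their rule alone. The Mrgpra3 markers Il31ra and Npy2r also served for Nppb neurons and could not be highest in both groups. The other, Mrgprx1, had 3 UMIs. Of the 49 Mrgpra3 neurons 17 met a further rule, 12 of them that of Calca/Trpv1 neurons. Median depth was similar in the S100b (3563 UMIs), Calca/Trpv1 (3540) and Nppb (3353) neurons, and higher in the Mrgpra3 (4997), Mrgprd (5371), Trpm8 (5671) and Cd34 (5842) neurons. More than 1 rule was met by 144 neurons, 6 barcode sequences are listed more than once, and 528 barcodes end in an unread base. Of the latter, 128 equal another barcode with 1 base deleted, 111 of them in neurons. Some neurons may therefore be counted more than once, which was not tested.

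The level of a gene in a group is its UMIs for every 1000000 UMIs counted there (CPM), with an exact Poisson 95% interval in parentheses. Ratios between genes are ratios of their summed UMIs, and ratios and shares carry exact binomial (Clopper-Pearson) 95% intervals. The intervals cover counting error only, not the spread between runs or mice. Because 1 UMI stands for 1 transcript captured at its 3' end, levels and ratios between genes were not divided by gene length. Barcodes of other cells also hold UMIs of neuronal genes, from a source that was not tested, and in droplet data free RNA is one known source. Therefore 374 glial barcodes (median 1615 UMIs) and 589 red blood cell barcodes (median 1394 UMIs) gave the background for each gene. Background was compared as CPM, although these barcodes have a lower median depth than the neurons. A gene called at background had a CPM no higher than theirs. A comparison of UMIs per barcode, which was not made, could differ.

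Nefl was the most abundant of the 7 genes in S100b neurons, where its level was 12408 (12291 to 12526) CPM. It was 8684 (8559 to 8811) CPM in Trpm8 and 4689 (4613 to 4766) CPM in Cd34 neurons, followed by Mrgpra3 with 3784 (3575 to 4002) CPM, Mrgprd with 2958 (2899 to 3018) CPM, Calca/Trpv1 with 2597 (2552 to 2643) CPM and Nppb with 1735 (1586 to 1894) CPM. No 2 neighbours in this order had overlapping intervals. The Nppb level rests on 6 neurons that met a further rule, and it was 566 (468 to 678) CPM in the other 53. The Cd34 level was 3876 (3803 to 3950.2) CPM in the 298 neurons that did not meet the S100b rule, which overlapped with Mrgpra3 neurons. All groups stood well above the 221 CPM of glial and 231 CPM of red blood cell barcodes. A UMI of Nefl was seen in 96.3% of S100b and 99.7% of Mrgprd neurons but in 67.8% of Nppb neurons. After each neuron had been thinned at random to 1000 UMIs, the shares were 93.3%, 93.7% and 37.3%, compared with 19.8% of glial barcodes. Before thinning, the light chain was therefore detected in nearly all neurons of 6 groups, and the Nppb neurons were the exception.

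Nefm, the medium subunit, was concentrated in the S100b and Trpm8 neurons, with 11194 (11082 to 11306) and 7608 (7491 to 7726) CPM. All other groups lay far below. The levels were 1847 (1799.5 to 1896) CPM in Cd34 and 1575 (1539.6 to 1610.3) CPM in Calca/Trpv1 neurons, and the Nppb (980.4 CPM, 869 to 1102), Mrgprd (882 CPM, 849.9 to 915) and Mrgpra3 (829 CPM, 733 to 935) neurons had overlapping intervals with their neighbours in this order. The reference barcodes carried more of this gene than of Nefl, with 275 CPM in glial and 323 CPM in red blood cell barcodes. Without the 21 neurons that also met the S100b rule the Cd34 level was 969.9 (934 to 1007) CPM, below that of Calca/Trpv1 neurons. The Nppb level rests on 6 neurons that met a further rule, and it was 261 (196 to 341) CPM in the other 53. Subtracting the red blood cell level, an alternative chosen after seeing the data, lowered the Mrgprd and Mrgpra3 values to 559 and 507 CPM, whereas thinning raised the Mrgpra3 value to 1429 CPM.

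Nefh, the heavy subunit, had the same leading groups, with 3031 (2973 to 3089.9) CPM in S100b and 1978 (1919 to 2039) CPM in Trpm8 neurons. Cd34 neurons followed with 682 (653 to 712) CPM, but this place rests on 21 neurons that also met the S100b rule, and the other 298 had 348 (327 to 371) CPM. The remaining levels were 389 (372 to 407) CPM in Calca/Trpv1, 353 (291 to 424) CPM in Mrgpra3, 319.8 (258 to 392) CPM in Nppb and 292 (273 to 311) CPM in Mrgprd neurons, each overlapping with its neighbour, although Calca/Trpv1 and Mrgprd neurons did not overlap with each other. In the 696 Calca/Trpv1 neurons without a UMI of S100b the level was 259.8 (242 to 278) CPM, which overlapped with Mrgprd neurons. The Nppb level was 140.3 (94.0 to 202) CPM, below that of Mrgprd neurons, without 6 neurons that met a further rule. Background was 71.7 CPM in glial and 89.6 CPM in red blood cell barcodes. At 1000 UMIs a neuron, Nefh was seen in 76.6% of S100b and 73.4% of Trpm8 neurons, in 11.9% of Nppb neurons and in 24.3% to 27.3% of the neurons of the other 4 groups, against 6.42% and 8.32% in the reference barcodes. The heavy chain was thus found above background at a low level in Cd34, Calca/Trpv1, Mrgpra3 and Mrgprd neurons, while the share of Nppb neurons lay close to that of the reference barcodes. In the 49 Mrgpra3 neurons the level depended on the weighting of neurons, with a mean of per-neuron CPM of 515 and 653 CPM after thinning.

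Prph, encoding peripherin, showed the flattest profile of the 5 filament genes and was lowest where the neurofilament genes were highest. Mrgprd neurons had 3622 (3557 to 3688) CPM and Cd34 neurons 3245 (3182 to 3309) CPM. Trpm8 (3043 CPM, 2969 to 3118), Nppb (2920.3 CPM, 2726 to 3125), Mrgpra3 (2815 CPM, 2635 to 3004) and Calca/Trpv1 neurons (2811 CPM, 2764 to 2859) overlapped with their neighbours in this order. S100b neurons had the lowest level, 1761 (1717 to 1806) CPM, yet this was far above the 98.9 and 92.8 CPM of glial and red blood cell barcodes. At 1000 UMIs a neuron, a UMI of Prph was seen in 69.5% of S100b neurons and in 90.9% to 95.9% of the neurons of each other group.

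Ina, encoding alpha-internexin, was the scarcest filament gene and was distributed in a different way again. It was highest in Mrgprd (231 CPM, 215 to 248), Cd34 (203 CPM, 188 to 219.8) and Mrgpra3 neurons (195 CPM, 149.8 to 249), whose neighbouring intervals overlapped. The level was 113 (104 to 123) CPM in Calca/Trpv1 and 72.1 (61.2 to 84.5) CPM in Trpm8 neurons, and S100b (35.2 CPM, 29.2 to 42.1) and Nppb neurons (31.3 CPM, 14.3 to 59.4) were the lowest and overlapped. In the latter the interval also overlapped those of the 11.1 (5.09 to 21.1) CPM in glial and 8.44 (3.64 to 16.6) CPM in red blood cell barcodes. The Nppb level rests on 9 UMIs in 5 neurons, of which 4 UMIs lay in the 53 neurons that met no further rule. Whether Ina exceeded background in Nppb neurons was not tested. In S100b neurons Ina was seen in 11.4% of the neurons, and the 49 neurons with most UMIs of it held 94.2% of its UMIs. In Mrgprd neurons it was seen in 63.6%. At 1000 UMIs these shares were 2.04% and 20.8%, against 1.87% of glial barcodes.

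**Figure D1:**
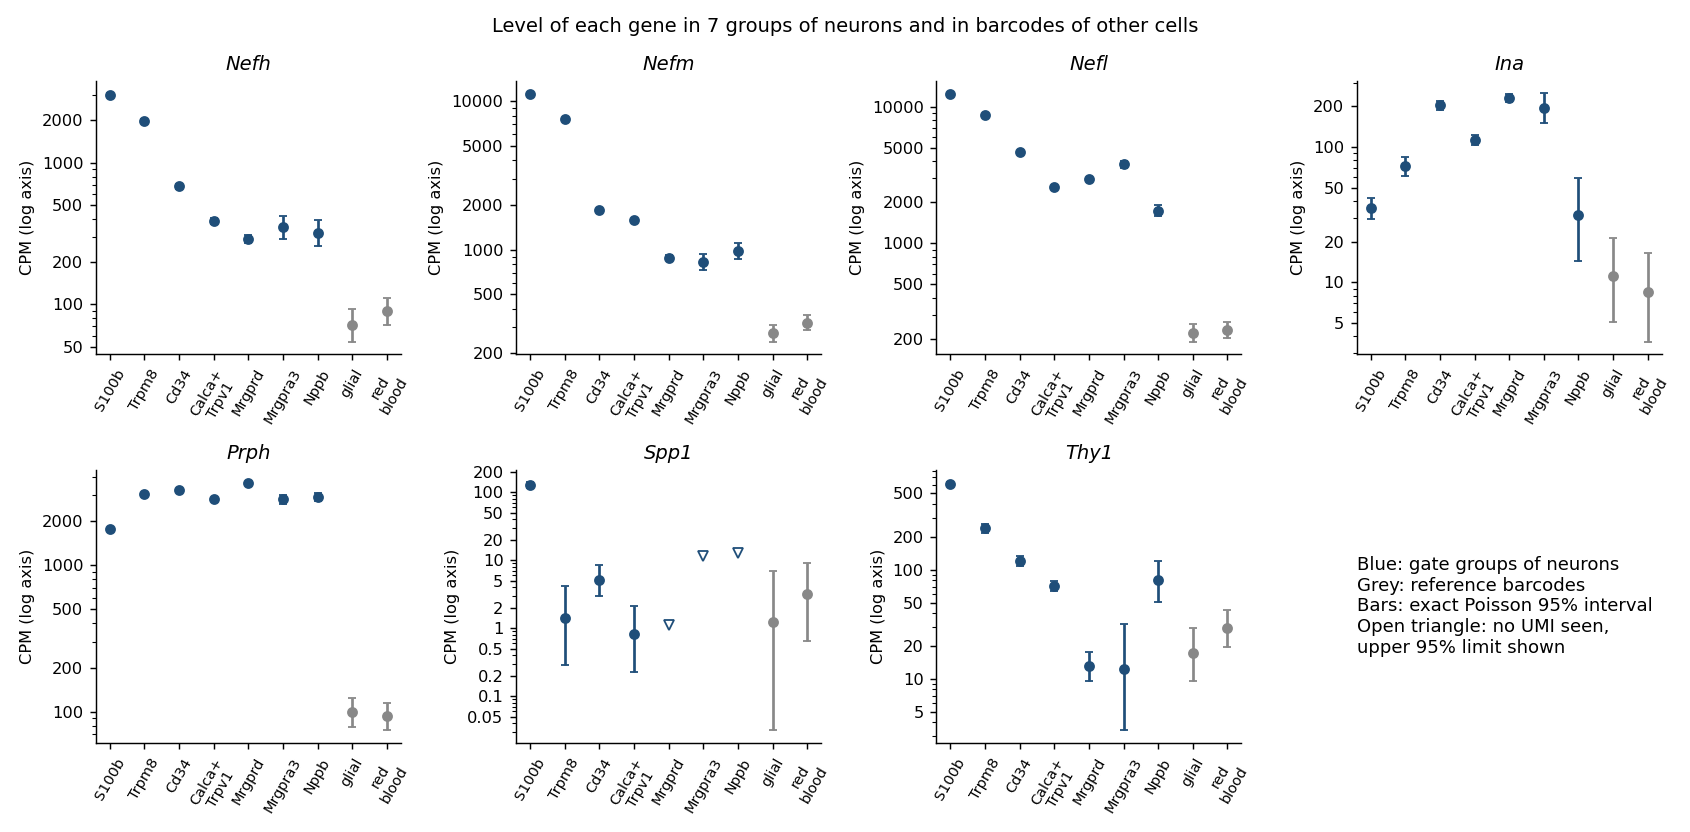
Level of each of the 7 genes (CPM, log axis) in the 7 groups of neurons (blue) and in glial and red blood cell barcodes (grey), with exact Poisson 95% intervals. Open triangles mark groups with no UMI of the gene and show the upper 95% limit. Nefh, Nefm, Nefl and Thy1 are highest in S100b neurons, where Prph has its lowest level, 1761 CPM, and Ina is highest in Mrgprd neurons at 231 CPM.

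Thy1 followed the neurofilament genes at a lower level, with 606 (581 to 633) CPM in S100b and 239 (218 to 260.3) CPM in Trpm8 neurons. Cd34 (121 CPM, 109 to 134), Nppb (80.0 CPM, 50.7 to 120.0) and Calca/Trpv1 neurons (70.7 CPM, 63.4 to 78.5) came next, with overlapping neighbours, but 17 of the 23 UMIs of the Nppb neurons came from 1 barcode. In the 53 Nppb neurons that met no other rule the level was 14.5 (2.99 to 42.4) CPM. It was 43.5 (36.1 to 52.0) CPM in the Cd34 neurons that did not meet the S100b rule and 15.0 (11.0 to 20.0) CPM in the Calca/Trpv1 neurons without S100b. Mrgprd neurons had 13.1 (9.51 to 17.7) CPM and Mrgpra3 neurons 12.4 (3.37 to 31.7) CPM. Glial barcodes had 17.3 (9.47 to 29.1) CPM and red blood cell barcodes 29.5 (19.6 to 42.7) CPM. By CPM, Thy1 was thus at background in Mrgprd and Mrgpra3 neurons. In Nppb neurons without the 6 that met a further rule, it could not be told from background by CPM. Before thinning, a UMI of Thy1 was seen in 5.80% of Mrgprd and 6.12% of Mrgpra3 neurons, which are deeper. The shares were 3.48% of glial and 3.90% of red blood cell barcodes. At 1000 UMIs these 4 shares were 0.792%, 2.04%, 1.07% and 3.06%. A UMI of Thy1 was seen in 74.9% of S100b neurons and 40.5% at 1000 UMIs, compared with 13.5% of Trpm8, 3.61% of Calca/Trpv1 and 3.06% of red blood cell barcodes.

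Spp1 was the most restricted of the 7 genes. S100b neurons had 129 (117 to 141) CPM and Cd34 neurons 5.18 (2.96 to 8.41) CPM, of which 14 of 16 UMIs came from a single barcode. Trpm8 (1.41 CPM) and Calca/Trpv1 neurons (0.822 CPM) lay at or below the 3.16 (0.652 to 9.24) CPM of red blood cell barcodes. No UMI of Spp1 was seen in 379 Mrgprd, 49 Mrgpra3 or 59 Nppb neurons, which allows shares of neurons with a UMI of up to 0.792%, 6.12% and 5.08% when 3 neurons are taken as the limit that a count of 0 allows. Even in S100b neurons it was seen in 50 of 491 neurons, 10.2% (7.65 to 13.2%), and 126 of its 442 UMIs there came from 1 barcode. Leaving out the deepest 5% of neurons lowered the level to 54.8 CPM.

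The groups also differed in how much of their transcriptome went to filaments. The 5 filament genes made up 2.84% of all UMIs in S100b and 2.14% in Trpm8 neurons, 1.07% in Cd34 neurons and 0.599% to 0.798% in the other 4 groups, against 0.0678% in glial barcodes. Within these UMIs, Prph took 6.19% (6.04 to 6.35%) in S100b neurons, 14.2% (13.9 to 14.6%) in Trpm8, 30.4% (29.9 to 30.9%) in Cd34 and 35.3% (33.5 to 37.2%) in Mrgpra3 neurons. It took 37.6% (37.1 to 38.1%) in Calca/Trpv1, 45.4% (44.8 to 46.0%) in Mrgprd and 48.8% (46.4 to 51.2%) in Nppb neurons. The Nefl share of the filament UMIs ranged from 29.0% in Nppb to 47.4% in Mrgpra3 neurons. The Nppb shares rest on 6 neurons that met a further rule, and in the other 53 Prph took 75.5% (72.4 to 78.4%) and Nefl 14.0% (11.8 to 16.6%), with 6.48% (4.91 to 8.37%) for Nefm and 3.48% (2.34 to 4.96%) for Nefh. Over the whole groups, the Nefm share ranged from 10.4% in Mrgpra3 to 39.4% in S100b neurons, and the Nefh share from 3.65% in Mrgprd to 10.7% in S100b neurons.

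**Figure D2:**
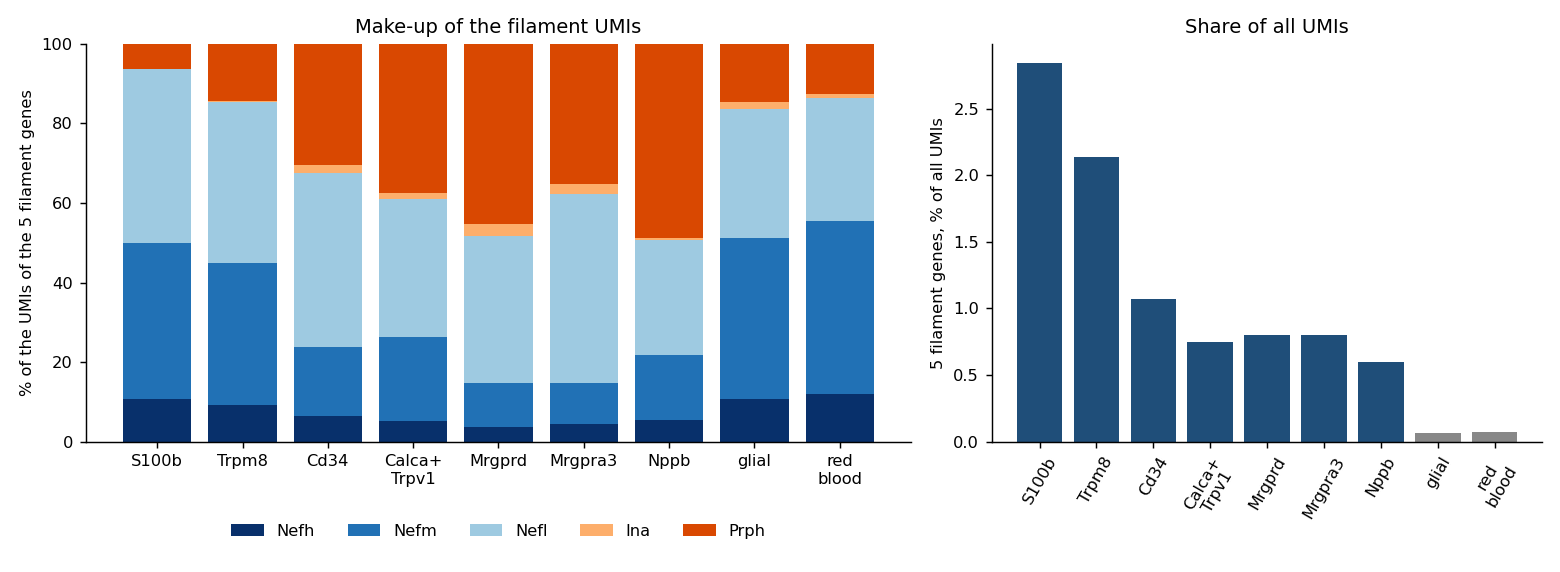
Left, share (%) of Nefh, Nefm, Nefl, Ina and Prph in the summed UMIs of these 5 genes for each group of neurons and for glial and red blood cell barcodes. Right, the 5 genes together as % of all UMIs. Prph makes up 6.19% of filament UMIs in S100b neurons and 48.8% in Nppb neurons.

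The ratio of the heavy chain to peripherin set the S100b and Trpm8 neurons apart from the other groups. There were 1.72 (1.67 to 1.78) UMIs of Nefh for each UMI of Prph in S100b neurons and 0.650 (0.625 to 0.676) in Trpm8 neurons. The ratio was 0.210 (0.200 to 0.220) in Cd34, 0.139 (0.132 to 0.145) in Calca/Trpv1, 0.125 (0.102 to 0.152) in Mrgpra3, 0.110 (0.0873 to 0.136) in Nppb and 0.0805 (0.0753 to 0.0860) in Mrgprd neurons. S100b neurons were the only one of the 7 groups in which Nefh exceeded Prph. In the reference barcodes the ratio was 0.966 (0.708 to 1.32) in red blood cell and 0.725 (0.508 to 1.03) in glial barcodes, and the latter interval includes the ratio of the Trpm8 neurons. The order of the lower groups was not settled. Without the 21 Cd34 neurons that also met the S100b rule, the Cd34 ratio was 0.104 (0.0971 to 0.111). In the 696 Calca/Trpv1 neurons without a UMI of S100b it was 0.0907 (0.0843 to 0.0975), and the intervals of both overlapped. Without the 6 Nppb neurons that met a further rule, the Nppb ratio was 0.0461 (0.0306 to 0.0669), below that of Mrgprd neurons. In Mrgpra3 neurons it was 0.198 with the mean of per-neuron CPM and 0.222 after thinning.

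The proportions of the neurofilament subunits also differed between groups. Nefm to Nefl was 0.902 (0.890 to 0.915) in S100b and 0.876 (0.858 to 0.895) in Trpm8 neurons, close to 1 UMI of each. It was 0.606 (0.589 to 0.624) in Calca/Trpv1, 0.565 (0.487 to 0.655) in Nppb, 0.394 (0.382 to 0.406) in Cd34, 0.298 (0.286 to 0.311) in Mrgprd and 0.219 (0.191 to 0.250) in Mrgpra3 neurons. The Cd34 value without the 21 neurons of the S100b rule was 0.250 (0.240 to 0.261), below that of Mrgprd neurons, and the Nppb value without the 6 neurons of a further rule was 0.462 (0.328 to 0.642). UMIs of Nefl thus outnumbered those of Nefm in all 7 groups, and most in the last 3 of these groups. In glial and red blood cell barcodes the order was the opposite, with 1.24 (1.01 to 1.52) and 1.4 (1.17 to 1.67). Capture was not compared between the genes, and UMIs where Nefm-202 overlaps Nefl cannot be assigned with certainty. The numbers of transcripts in the neurons therefore do not follow from these ratios. Subtracting the red blood cell level moved the ratio in Mrgpra3 neurons to 0.143 and in Mrgprd neurons to 0.205, whereas thinning moved it to 0.402 in Mrgpra3 neurons, so their place as the lowest group was not settled.

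Nefh to Nefl ranged less, from 0.0932 (0.0762 to 0.113) in Mrgpra3 and 0.0986 (0.0921 to 0.105) in Mrgprd neurons to 0.244 (0.239 to 0.250) in S100b neurons, with 0.228 (0.220 to 0.236) in Trpm8, 0.184 (0.146 to 0.231) in Nppb, 0.150 (0.143 to 0.157) in Calca/Trpv1 and 0.145 (0.139 to 0.152) in Cd34 neurons. Without the 21 neurons that also met the S100b rule the Cd34 value was 0.0898 (0.0840 to 0.0959), overlapping with the lowest groups, and without the 6 neurons of a further rule the Nppb value was 0.248 (0.159 to 0.375). Nefh had fewer UMIs than Nefl in every group, and after thinning the Mrgpra3 value was 0.184. Nefh to Nefm was lowest in Calca/Trpv1 (0.247, 0.235 to 0.260), Trpm8 (0.260, 0.251 to 0.269) and S100b neurons (0.271, 0.265 to 0.277) and highest in Mrgpra3 neurons (0.425, 0.339 to 0.532). Between them lay Nppb with 0.326 (0.255 to 0.414), which was 0.537 (0.330 to 0.858) without the 6 neurons that met a further rule, Mrgprd with 0.331 (0.307 to 0.356) and Cd34 with 0.369 (0.351 to 0.388).

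UMIs of Prph outnumbered those of Nefl in some groups. Prph to Nefl was 1.68 (1.51 to 1.88) in Nppb, 1.22 (1.19 to 1.26) in Mrgprd and 1.08 (1.06 to 1.11) in Calca/Trpv1 neurons, where it was 1.33 (1.29 to 1.38) without a UMI of S100b. The Nppb ratio depended on few neurons, and it was 5.38 (4.41 to 6.61) without the 6 neurons that met a further rule, 3.36 with the mean of per-neuron CPM, 2.86 after thinning and 2.71 without the deepest 5%. It was 0.744 (0.682 to 0.811) in Mrgpra3, 0.692 (0.675 to 0.710) in Cd34, 0.350 (0.341 to 0.360) in Trpm8 and 0.142 (0.138 to 0.146) in S100b neurons. Alpha-internexin stayed a minor component. Ina to Prph was highest in Mrgpra3 (0.0692, 0.0528 to 0.0894), Mrgprd (0.0637, 0.0591 to 0.0686) and Cd34 neurons (0.0626, 0.0577 to 0.0679) and lowest in Nppb neurons (0.0107, 0.00488 to 0.0204), with 0.0401 (0.0368 to 0.0437) in Calca/Trpv1, 0.0237 (0.0201 to 0.0278) in Trpm8 and 0.0200 (0.0166 to 0.0239) in S100b neurons. Without neurons that had a glial UMI the S100b value was 0.0329, above the 0.0237 of all Trpm8 neurons. The Trpm8 value without such neurons is not given here, so these are unlike sets of neurons. The Nppb value ran from 0.00636 without the 6 neurons of a further rule to 0.0189 with 1 UMI more for each group. Relative to Nefl, Ina ran from 0.0780 (0.0723 to 0.0840) in Mrgprd down to 0.00284 (0.00235 to 0.00339) in S100b neurons. Thy1 to Nefh was 0.200 (0.191 to 0.210) in S100b, 0.181 (0.161 to 0.204) in Calca/Trpv1, 0.178 (0.159 to 0.198) in Cd34 and 0.121 (0.110 to 0.132) in Trpm8 neurons. Neurons with S100b weighed on these values, which were 0.0576 (0.0419 to 0.0776) in Calca/Trpv1 neurons without S100b and 0.125 (0.103 to 0.151) in Cd34 neurons that did not meet the S100b rule. The ratio was 0.250 (0.151 to 0.398) in Nppb, or 0.103 (0.0202 to 0.334) without the 6 neurons that met a further rule, 0.0451 (0.0324 to 0.0612) in Mrgprd and 0.0351 (0.00940 to 0.0923) in Mrgpra3 neurons. Thy1 was at background in the last 2 groups, and the ratio was 0.0210 in Mrgprd neurons that met 1 rule alone and 0.0240 after thinning, and 0.0108 in Mrgpra3 neurons without barcodes ending in an unread base.

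**Figure D3:**
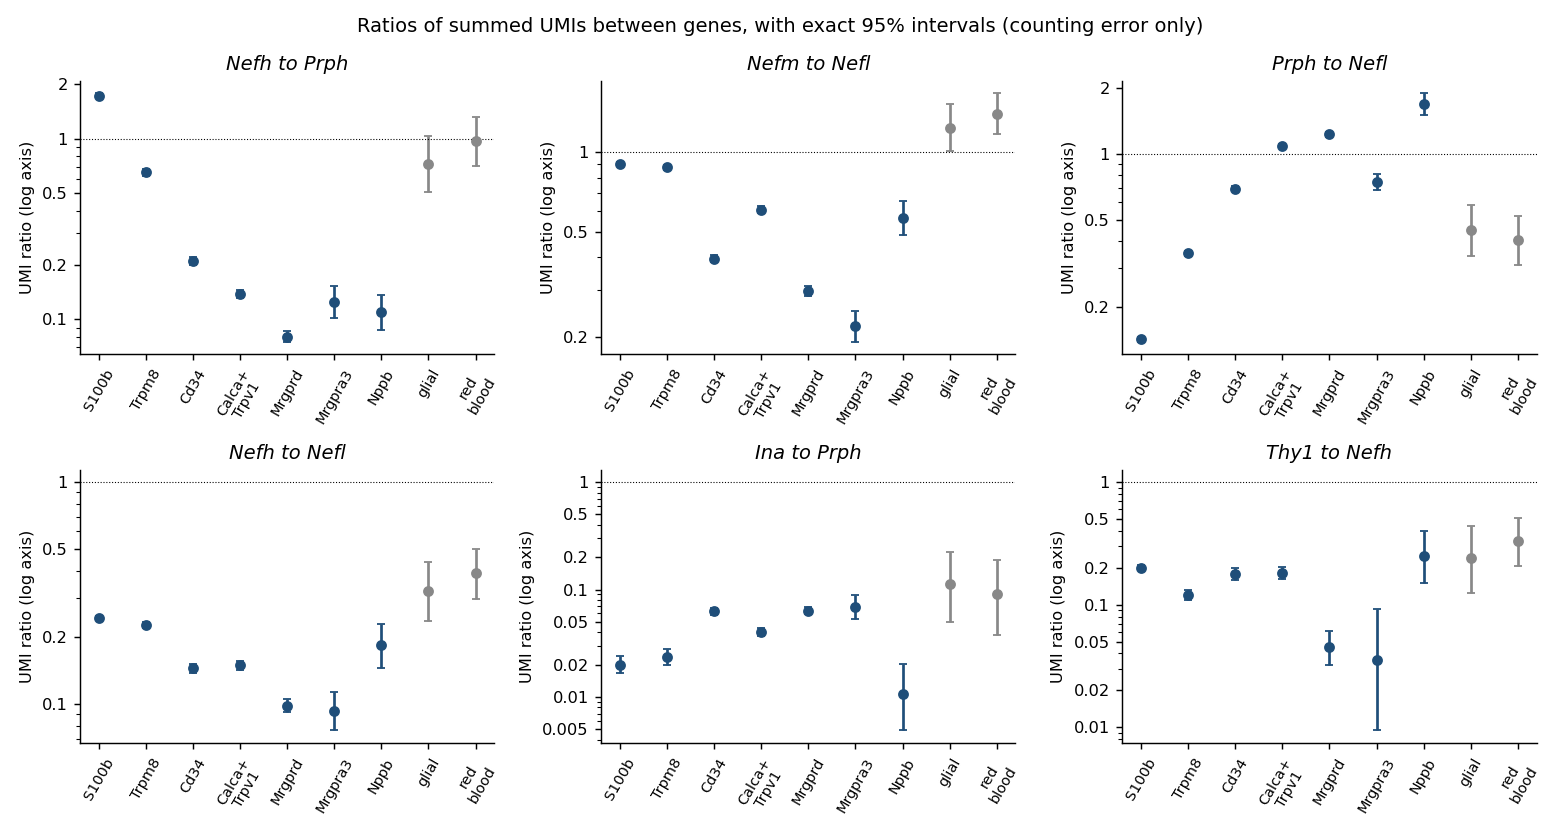
Ratios of summed UMIs for 6 pairs of genes (log axis) in the groups of neurons (blue) and in glial and red blood cell barcodes (grey), with exact binomial 95% intervals. The dotted line marks equal numbers. Nefh exceeds Prph in S100b neurons, at 1.72, and Nefm stays below Nefl in all 7 groups but not in the reference barcodes.

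The difference in Nefh to Prph was also seen neuron by neuron. Among neurons with at least 5 UMIs of Nefh and Prph together, the median share of Nefh was 64.9% in 386 S100b neurons, with quartiles of 50% and 80.0%, and 36.4% in 229 Trpm8 neurons, with quartiles of 23.1% and 50.8%. The median was 7.14% in 756 Calca/Trpv1, 6.90% in 291 Cd34, 6.82% in 347 Mrgprd and 5.80% in 38 Mrgpra3 neurons, and 0 in 49 Nppb neurons. Nefh made up at least 50% in 290 of the S100b neurons, 75.1% (70.5 to 79.4%), in 67 Trpm8 neurons, 29.3% (23.5 to 35.6%), and in 17 of the Calca/Trpv1 neurons, 2.25% (1.31 to 3.58%). The spread within the S100b and Trpm8 neurons was wide enough for the groups to overlap. Most of these neurons carried both transcripts. Nefh and Prph were seen together in 83.5% of S100b and 94.3% of Trpm8 neurons, and in 57.8% of Calca/Trpv1 neurons. At 1000 UMIs these shares were 56.2%, 68.0% and 22.0%, against 0.535% of glial barcodes.

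The same held for Nefm and Nefl. The median share of Nefm was 48.3% in S100b, 44.8% in Trpm8 and 35.3% in Calca/Trpv1 neurons, and 26.8% in Nppb, 21.4% in Mrgprd, 15.1% in Cd34 and 14.8% in Mrgpra3 neurons. The Nppb median comes from the 20 of 59 neurons that had at least 5 UMIs of both genes together, against 42 of 49 in Mrgpra3 neurons. Cd34 and Mrgpra3 neurons had the lowest medians. In Cd34 neurons the summed UMIs gave a higher share of Nefm than the median neuron did, and the neurons rich in Nefm among them are described with the mixed groups.

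**Figure D4:**
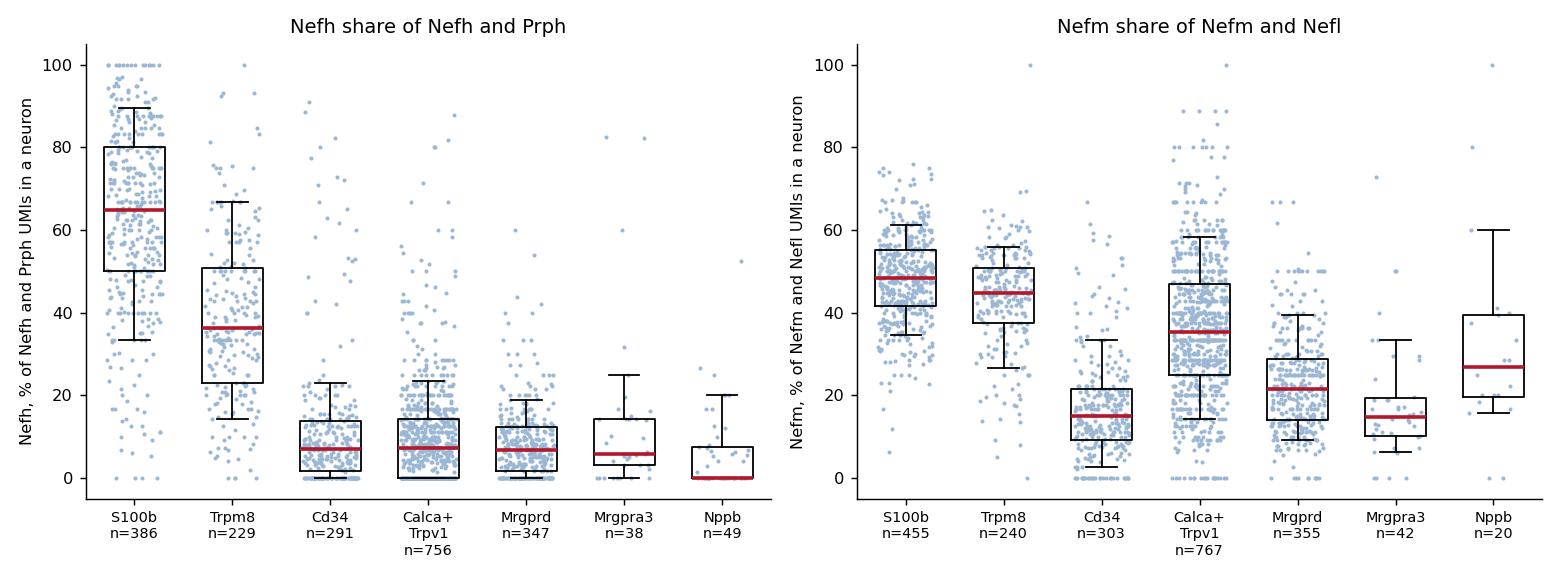
Share (%) of Nefh in the Nefh and Prph UMIs of a neuron (left) and of Nefm in its Nefm and Nefl UMIs (right), for neurons with at least 5 UMIs of the pair. Points are neurons, boxes show quartiles, red lines medians and whiskers the 10th and 90th percentiles. The median Nefh share is 64.9% in S100b and 36.4% in Trpm8 neurons, and under 10% in the other groups.

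Within groups, the levels of the neurofilament genes varied together from neuron to neuron to different degrees. The following Spearman correlations are over neurons with fewer than 5 glial UMIs, which share libraries and differ in depth, and they are a description only. Nefm and Nefl had a rho of 0.89 over 237 Trpm8 and 0.87 over 417 S100b neurons, and of 0.75 and 0.79 after thinning to 1000 UMIs. In Calca/Trpv1 neurons rho was 0.40 and in Mrgprd neurons 0.20, over 896 and 364 neurons, and 0.19 and 0.05 after thinning. Nefh and Nefl gave 0.70 in Trpm8 and 0.51 in S100b neurons, or 0.40 and 0.33 after thinning. For Prph and Nefl rho was close to 0, namely -0.08 in Trpm8, -0.15 in S100b and 0.03 in Calca/Trpv1 neurons. Thy1 and Nefl had a rho of 0.60 in Trpm8 and 0.01 in S100b neurons, or 0.21 and 0.05 after thinning.

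Several groups held neurons that differed in these genes. In the Cd34 group, 21 of 319 neurons also met the S100b rule. Their Nefh level was 3688 (3477 to 3908) CPM, compared with 348 (327 to 371) CPM in the other 298, and they supplied 1139 of the 2107 Nefh UMIs of the group. Nefm was 9746 and 969.9 CPM, Thy1 819 and 43.5 CPM, and Ina 45.3 and 221 CPM, respectively. Without the 21 neurons, Nefh to Prph was 0.104 (0.0971 to 0.111) and Nefm to Nefl 0.250 (0.240 to 0.261), against 0.0805 and 0.298 in Mrgprd neurons. The 21 neurons had a median of 11743 UMIs against 5804, and whether such barcodes held 2 cells was not tested.

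In the Nppb group, 6 of 59 neurons met a further rule, 5 of them that of Calca/Trpv1 neurons, and these supplied 382 of the 499 Nefl UMIs. The other 53 had 566 (468 to 678) CPM of Nefl, 261 (196 to 341) CPM of Nefm and 140.3 (94.0 to 202) CPM of Nefh. Their Nefm level did not exceed the 323 (288 to 361) CPM of red blood cell barcodes, and the Nefh interval overlapped that of the red blood cell barcodes (89.6 CPM, 71.6 to 111) but lay above that of the glial barcodes (71.7 CPM, 54.5 to 92.7). Prph stayed at 3044 (2810.3 to 3291) CPM in them. Nppb neurons thus carried mostly peripherin, with Nefl at a low level and Nefm and Nefh at or near the background level of this experiment. The 6 neurons had a median of 11096 UMIs against 3087.

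The S100b neurons were divided by Calca, which encodes the peptide CGRP and was not used in their rule. Those with at least 5 UMIs of Calca (110 neurons) had 7110.2 (6941 to 7283) CPM of Nefm and 8933 (8743 to 9126) CPM of Nefl, compared with 12734 (12594 to 12875) and 13719 (13574 to 13865) CPM in the other 381. Nefh differed less, at 2674 (2570.4 to 2780.4) and 3166 (3096 to 3236) CPM. Thy1 was higher with Calca, at 809 (753 to 869) and 529.6 (501 to 559) CPM. Neurons with at least 5 glial UMIs weighed on these values. Without them Nefh was 2432 and 3514 CPM, Nefm 7156 and 14122 CPM, Nefl 8919 and 15301 CPM and Thy1 780 and 570 CPM. Median depth was 4551.5 UMIs in the 110 neurons and 3454 in the 381, and its part in these differences was not tested. Spp1 was almost confined to neurons with little Calca, at 175 (159 to 193) CPM against 4.25 (1.16 to 10.9) CPM, or 47 of 381 neurons and 3 of 110. The 50 S100b neurons with a UMI of Spp1 had more Nefh (4044 and 2788 CPM), more Nefm (15498 and 10160.3 CPM) and more Pvalb, a calcium-binding protein of large neurons (415 and 33.9 CPM), than the 441 without. They were deeper, with medians of 6877 and 3229 UMIs, and the part of depth in these differences was not tested.

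S100b neurons also carried glial RNA. The summed level of a list of 8 glial genes was 7418 CPM in them, 242 to 2306 CPM in the other groups and 118972 CPM in glial barcodes. S100b is itself expressed by glia, and each of the 8 glial genes was seen in S100b neurons. In 233 S100b neurons without a UMI of the glial genes that defined the glial barcodes the levels were 3310.1 (3204 to 3419) CPM of Nefh and 1561 (1488 to 1636) CPM of Prph, and in the 74 with at least 5 such UMIs 2224 (2119.5 to 2332) and 1849 (1754 to 1948) CPM. The ratio of Nefh to Prph was 2.12 (2.0 to 2.25) and 1.20 (1.12 to 1.29) at median depths of 2691 and 4238 UMIs, and the part of glial RNA or of depth in this difference was not tested. Nefm to Nefl was 0.909 (0.888 to 0.931) and 0.885 (0.852 to 0.919).

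Trpm8 neurons were divided by Gal, the gene of the neuropeptide galanin, because galanin, like Nefh, was a gene by which the study told its Trpm8 clusters apart. The division is therefore not independent of Nefh. The 105 neurons without a UMI of Gal had 2504 (2396 to 2616) CPM of Nefh, 10012 (9794 to 10234) CPM of Nefm and 11416 (11184 to 11653) CPM of Nefl, and the 139 with one had 1659 (1590.4 to 1730.2), 6148 (6015 to 6283) and 7026 (6884 to 7171) CPM. Thy1 differed in the same direction, at 331 (292 to 373) and 183 (160.3 to 207) CPM, whereas Prph was 2876 (2759.7 to 2996) and 3144 (3049 to 3241) CPM. Nefm to Nefl was the same within error, at 0.877 (0.851 to 0.904) and 0.875 (0.849 to 0.902). Median depth was 3634 and 7125 UMIs.

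Among Calca/Trpv1 neurons, 105 had at least 2 UMIs of S100b and 696 had none. Nefh was 782 (731 to 834) CPM in the former and 259.8 (242 to 278) CPM in the latter, and Thy1 243 (215 to 273) and 15.0 (11.0 to 20.0) CPM. In the neurons without S100b, Thy1 was thus at the background level. Prph was 2699.7 (2606 to 2796) and 2864 (2804 to 2924) CPM, and Ina 112 (93.7 to 133) and 115 (104 to 128) CPM, with overlapping intervals for Ina. Median depth was 7953 and 3138 UMIs, and how much of the difference goes with depth or with barcodes that hold more than 1 cell was not tested.

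The S100b and Calca/Trpv1 neurons, which have nearly the same median depth, were set against each other over all genes. With 1 pooled sample a group, a gene was called different when its CPM differed at least 2-fold, and no p-value was computed. Of 10340 genes with at least 50 UMIs in the 2 groups together, 8.47% were higher and 9.72% lower in S100b neurons, 18.2% in all, and the median log2 ratio over these genes was -0.07. Among the 7 genes described here, 5 were higher and 1 was lower. Nefh was 7.78-fold higher in S100b neurons, a log2 ratio of 2.96 (2.89 to 3.03), Nefm 7.11-fold, 2.83 (2.79 to 2.87), and Nefl 4.78-fold, 2.26 (2.23 to 2.29). Thy1 was 8.58-fold higher, a log2 ratio of 3.10 (2.94 to 3.27), and 12.9-fold higher after thinning, 13.3-fold with the mean of per-neuron CPM, 13.4-fold without the deepest 5% and 20.0-fold without neurons that had a glial UMI. Spp1 had 442 UMIs against 4, a log2 ratio of 7.29 (5.92 to 9.17), with the lower level at background. This 157-fold value rests on those 4 UMIs and moved to 57.8-fold without the deepest 5%, 68.6-fold with the mean of per-neuron CPM, 72.6-fold after thinning, 205-fold without neurons that had a glial UMI and 246-fold without those that had at least 5. Ina was 3.20-fold lower, a log2 ratio of -1.68 (-1.98 to -1.39), and after thinning its level in S100b neurons was 0.203 times that in Calca/Trpv1 neurons. Prph was 1.60-fold lower, a log2 ratio of -0.67 (-0.72 to -0.63), and did not reach 2-fold. Neither in the mean of per-neuron CPM (-0.93) nor after thinning (-0.98) did its log2 ratio reach -1. The ratio of Nefh to Prph differed by 3.63 (3.55 to 3.72) on the log2 scale between these groups.

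Set against all other neurons, 12094 genes with at least 50 UMIs were compared for each group. These comparisons share most of their neurons, and each is given for itself. In S100b neurons 5 of the 7 genes were at least 2-fold higher (6.20% of all genes) and 1, Ina, lower (9.76%), with a log2 ratio of 2.12 (2.08 to 2.16) for Nefh and -2.08 (-2.36 to -1.82) for Ina. In Trpm8 neurons Nefm (1.14, 1.11 to 1.16) and Nefh (1.01, 0.96 to 1.06) were higher, the latter just past 2-fold (3.65% of all genes), and Spp1 was lower (16.5%). Mrgprd neurons had 1 gene higher (5.21% of all genes), Ina with a log2 ratio of 1.05 (0.92 to 1.17), and 4 lower (18.5%), Nefh, Nefm, Thy1 and Spp1. None of the 7 was higher in the remaining groups, where 6.24% of all genes were higher in Mrgpra3, 6.34% in Nppb, 4.22% in Cd34 and 5.46% in Calca/Trpv1 neurons. Lower were 4 in Mrgpra3 (21.9% of all genes), Nefh, Nefm, Thy1 and Spp1, and in Nppb neurons all but Prph, 6 genes (21.3%). In Cd34 neurons 2 genes were lower (13.1%), Nefm and Spp1, a count that rests on the 21 neurons that also met the S100b rule, since the other 298 had 348 CPM of Nefh and 43.5 CPM of Thy1, against 1151 and 192 CPM in all other neurons. Lower in Calca/Trpv1 neurons were 5 (9.48%), all but Prph and Ina. Spp1 was called on no UMI in Mrgprd, Mrgpra3 and Nppb neurons, where its interval reached no further than log2 ratios of -4.65, -1.08 and -0.91. Prph was past 2-fold in none of the 7 groups.

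Wider lists of cytoskeleton genes were compared between the S100b and Calca/Trpv1 neurons. Of 69 listed genes 68 were measured and 59 tested, of which 8 were at least 2-fold higher and 3 lower, against 8.47% and 9.72% of all genes, with a median log2 ratio of 0.15 against -0.07 over all genes. The higher genes lay mostly in the list of spectrins, ankyrins, actins and proteins of the node of Ranvier, where 7 of 18 were higher and none lower, with a median of 0.35. The largest values were those of Kcna1, a potassium channel of the juxtaparanode (4.18, 3.91 to 4.45), Cntn1, the adhesion protein contactin of the paranode (3.28, 3.07 to 3.50), and Scn8a, the sodium channel of the node (2.68, 2.38 to 2.98). Among the tubulins 1 of 9 was higher and none lower (median -0.13). The higher one, named after its value was seen, was Tuba4a, an alpha-tubulin (1.47, 1.34 to 1.60). Microtubule-associated and stathmin genes had none of 15 higher and 1 lower (median 0.12), and linkers and motors none of 13 in either direction (median 0.14). Of the other intermediate filament genes 4 were tested, with 2 lower and none higher. Vim, encoding vimentin, had the lowest log2 ratio of all lists (-2.56, -2.77 to -2.36), followed by Stmn1, a tubulin-binding stathmin (-1.70, -1.85 to -1.55), and Lmna, the nuclear lamin A gene (-1.10, -1.31 to -0.90). Vim is also a gene of fibroblasts. The summed level of 4 fibroblast genes (Dcn, Col1a1, Col1a2 and Lum) was 350.0 CPM in Calca/Trpv1 neurons, all 4 being seen, and 43.1 CPM in S100b neurons, where 1 was at 0, and its part in these differences was not tested.

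**Figure D5:**
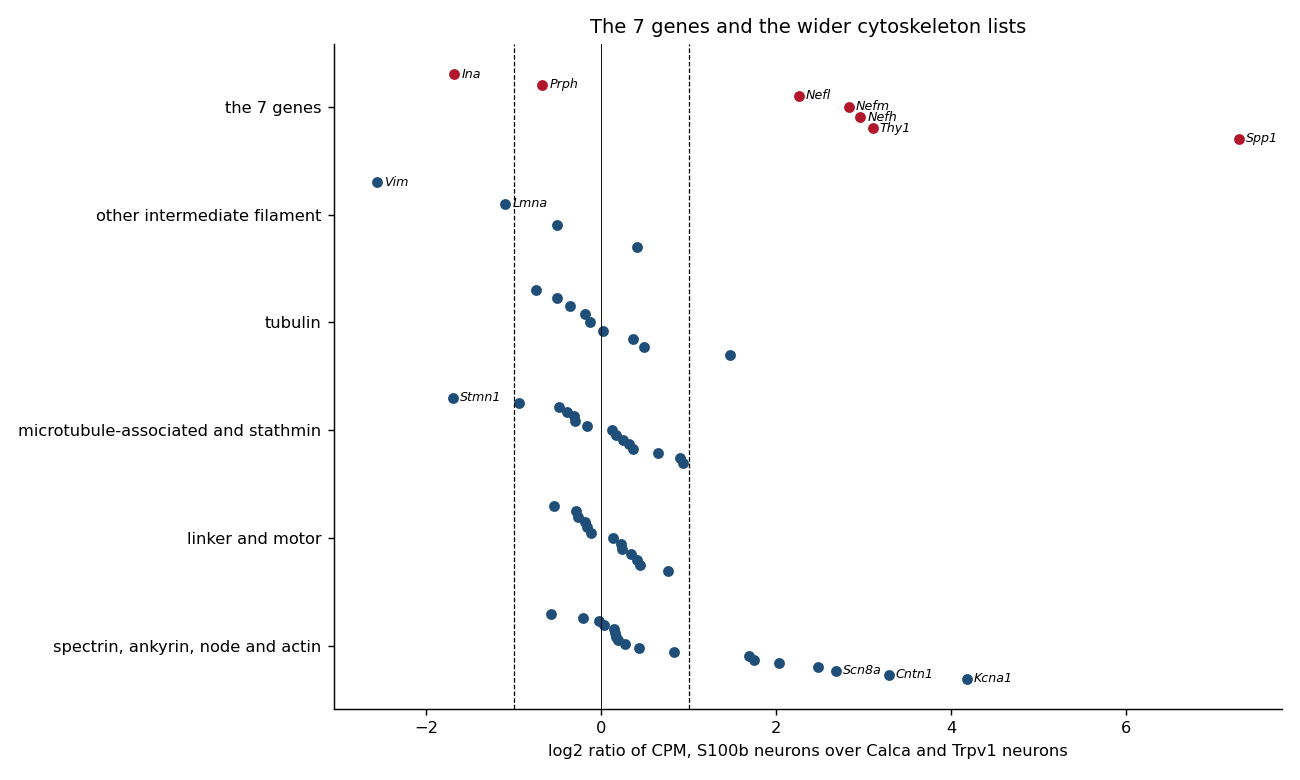
Log2 ratio of CPM in S100b over Calca/Trpv1 neurons for the 7 genes (red) and for 5 wider lists of cytoskeleton genes (blue). Dashed lines mark 2-fold. The 3 highest and 3 lowest genes of the lists are named, from Kcna1 at 4.18 to Vim at -2.56.

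Over the 7 groups, the profile of log2(CPM + 10) of Nefh was most like those of Sparcl1 (Pearson r = 0.995), Lgi3 (0.992), Haghl (0.990), Rab3a (0.988) and Tecr (0.987) among 6575 genes with at least 500 UMIs in neurons. Among the genes most like Prph were Fbxl5 (0.982), Ldb2 (0.966), Ube2h (0.921) and Tm9sf3 (0.921). With 7 points from shared libraries, the order is a description only. Between the members, r was 0.987 for Nefh and Nefm, 0.942 for Nefh and Nefl, 0.894 for Nefh and Thy1, -0.662 for Nefh and Prph and -0.484 for Nefh and Ina.

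Of all UMIs of each gene in the table, S100b neurons held 36.6% for Nefh, 38.7% for Nefm, 31.0% for Nefl, 38.6% for Thy1 and 66.9% for Spp1, but 8.90% for Prph and 3.81% for Ina, and they held 11.3% of the UMIs of all genes. A further 9.38% to 21.1% of the UMIs of Nefh, Nefm, Nefl, Prph, Spp1 and Thy1, and 5.63% of those of Ina, lay in 40 barcodes with more than 7500 genes, which held 9.72% of the UMIs of all genes, were outside the neuron rule and had a median of 64714 UMIs. Their Nefh to Prph ratio was 0.662.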

How the data were processed

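Dropseq libraries from 9 runs were processed by the authors, per the submitters' processing notes with bcl2fastq 2.17, STAR 2.5.3a on mm10 and Seurat 1.4.0.16. The authors deposited raw UMI counts per gene and barcode, without normalization. Barcodes do not name the run, so the table is 1 sample: no test, SD or p-value was possible, and called means at least 2-fold with at least 50 UMIs in both groups together. The 7 genes, the groups and the wider lists were chosen with earlier results of these data known. Named from the wider lists are the 3 highest and 3 lowest by log2 ratio, Tuba4a, chosen after its value was seen, and for Nefh and Prph the 5 genes nearest in profile. Glial and red blood cell barcodes had 200 to 8500 genes, at most 1 of the 4 neuron genes, and at least 5 UMIs of glial marker genes or at least 10% haemoglobin UMIs. Some gene names and results are not reported here. No doublet caller was run. Instead, neurons meeting more than 1 rule and the deepest 5% were left out as alternatives. Other alternatives were mean per-neuron CPM, thinning to 1000 UMIs (every barcode had enough), 900 to 7500 genes, at least 3 neuron genes, no glial UMI, 1 UMI more for each group, TMM factors (edgeR 4.0.16 in R 4.3.3) and no minimum beyond 1 UMI in each group. Python 3.11.15, numpy 2.4.6, pandas 2.3.3 and scipy 1.17.1 were used, and the calling step was checked on simulated counts.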

Additional observations from a re-analysis of the deposited data

How the results depend on the processing

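No paired analysis was possible because the barcodes do not name a run, and no run could be left out. Between S100b and Calca/Trpv1 neurons, the log2 ratios of Nefh (2.96), of Prph (-0.67) and of Nefh to Prph (3.63) kept their direction under every alternative tried, and in the alternatives named next they moved beyond their counting intervals. The values for Nefh, Prph and Nefh to Prph were 3.04, -0.93 and 3.96 with the mean of per-neuron CPM, 3.04, -0.98 and 4.02 after thinning, 3.41, -0.86 and 4.27 without neurons that had a glial UMI, and 3.21, -0.90 and 4.12 without the deepest 5% of neurons. In alternatives chosen after seeing the data, Nefh and Nefh to Prph gave 3.18 and 3.87 without neurons that had at least 5 glial UMIs, and 3.29 and 4.0 with the red blood cell level subtracted. Leaving out barcodes that end in an unread base moved none of the 3 beyond its interval. Prph gave -0.61 with at least 3 neuron genes and -0.62 with TMM factors. The cause of these shifts was not tested. The number of genes past 2-fold was 1881, and it was 847 after thinning, where 5191 genes reached the minimum, and 3977 with 1 UMI in each group as the only minimum, where 15099 were compared. In every alternative that gave calls, Ina was the member called lower and Nefh, Nefm, Nefl and Thy1 were called higher. Spp1 was also called higher, except after thinning, where it fell under the minimum. Leaving out neurons that met more than 1 rule cannot touch this comparison, since none were in these groups. It did change 10 of the 49 levels by over 1.5 times, all of them in Cd34, Nppb and Mrgprd neurons, and 11 of the 56 ratios. No level or ratio changed by that much with 900 to 7500 genes or at least 3 neuron genes. TMM factors scale all genes of a group alike, so they cannot change a ratio of genes within a group. They ran from 0.951 to 1.05 and could not move a level by 1.5 times. Among other alternatives, Nefh in Nppb neurons ranged down to 136 CPM (319.8 as reported) and Thy1 in Calca/Trpv1 neurons to 28.9 CPM (70.7). In the 49 Mrgpra3 neurons thinning gave 653 CPM of Nefh and 1429 CPM of Nefm, and the cause was not tested.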

Other observations

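The 1383 neurons that met no rule had a median of 1868 UMIs and lay between the groups for these genes, with 806 (777 to 837) CPM of Nefh, 3744 (3679.9 to 3809) CPM of Nefl, 2451 (2399 to 2504) CPM of Prph and 119 (108 to 131) CPM of Thy1. Their Nefh to Prph ratio was 0.329 (0.315 to 0.343). In 820 of them with at least 5 UMIs of both genes together, Nefh made up at least 50% in 141, 17.2% (14.7 to 20.0%), and was not seen in 244. The summed level of 3 pituitary hormone genes was 5972 CPM in these neurons and 214 CPM in S100b neurons. That of 5 red blood cell genes was 12696 CPM, against 3151 to 6194 CPM in the 7 groups. The part of both in the values was not tested.

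Outside the neurons, 1141 barcodes with fewer than 2 of the neuron genes held 11.8% of the Spp1 UMIs of the table but 0.460% of those of Nefl, compared with 7.33% of the UMIs of all genes, and a single barcode among them had 38 UMIs of Spp1.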
